A study of Mus musculus with 6 samples.

Results

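The 43 genes described here encode the working parts of the lysosome: 5 membrane proteins, 2 soluble lumenal cofactors, 21 hydrolases and 15 subunits of the vacuolar proton pump (V-ATPase). They were chosen by gene symbol from 40213 genes, and all 43 were present in the count files. The counts came from bone marrow-derived macrophages, which were derived over 4 days from marrow of C57BL/6 mice in medium holding 10% serum and M-CSF (25 ng/ml), the growth factor that drives macrophage formation. The 3 control samples were left untreated, and the 3 MNP samples received polystyrene micro- and nanoplastics (50 µg, volume not stated) for 24 h. Whether the replicates came from separate animals, a pool or separate wells is not stated, so p-values measure the spread between these samples only, which may be technical. Library totals ran from 20262859 to 23042146 counts. Genes with a count numbered 20222 to 24062 in controls and 18240 to 18672 in MNP samples. Values are library-scaled counts (CPM) scaled by TMM factors, which correct for differences in RNA composition, and are given for replicates 1, 2 and 3 in that order. These factors were 1.024 to 1.037 in controls and 0.9581 to 0.9777 in MNP samples. Both measures thus separated the groups, and the reason was not tested.

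Lysosomes receive material taken up by phagocytosis and autophagy and break it down with soluble hydrolases that work at low pH. The V-ATPase supplies that acidity: its cytosolic V1 sector hydrolyses ATP and turns a rotor that drives protons through the membrane-embedded V0 sector. Heavily glycosylated membrane proteins line the compartment, and transporters export the products. Macrophages, whose main work includes the uptake of particles, are rich in lysosomes, and many lysosomal genes are known targets of the transcription factors TFEB, TFE3 and MITF, which bind a promoter sequence named the CLEAR element.

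Of the 43 members, 8 rose and 2 fell in MNP samples (edgeR quasi-likelihood test, adjusted p under 0.05 over all 12893 tested genes), and 33 did not pass. The largest increase was in Lipa, the acid lipase, at 1.65-fold, followed by the tetraspanin Cd63 at 1.32-fold and the V0 subunit Atp6v0b at 1.28-fold. Over all tested genes 17.5% were called, 9.11% as higher and 8.35% as lower, against 23.3%, 18.6% and 4.65% of the members. The members are abundant genes, with at least 275 counts in every library, and among the 6863 tested genes at least as abundant as the lowest member 22.8% were called, 13.1% as higher and 9.66% as lower. The members' total share of calls, higher and lower together, was therefore near that of other abundant genes. By direction the higher share was above that of abundant genes and the lower share below it. These shares rest on 8 and 2 members, and the difference was not tested. Their median log2 fold change was 0.04, against -0.01 for all tested genes, and their median size of change was 0.11, against 0.17 for all tested genes and 0.12 for the abundant ones.

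The values of the 2 groups did not overlap for 17 members, with MNP higher in 11 and control higher in 6 (25.6% and 14% of members). Over all tested genes 34.6% did not overlap, 17.2% higher and 17.4% lower, and among the abundant genes 22.3% were higher and 18.5% lower. At an unadjusted p under 0.05 edgeR called 29.9% of all tested genes, and at an adjusted p under 0.05 DESeq2 called 13.3% and limma-voom 17.4%. With library totals in place of TMM factors, which moved the median log2 fold change of all tested genes from -0.01 to -0.10, 4 members were called higher, Cd63, Lipa, Atp6v0b and Atp6v0c, and 7 lower, when 5.87% of all genes were called higher and 15.1% lower. With no filter on low counts 10 members were called higher and 0 lower, against 5.32% and 3.72% of all genes.

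Single libraries also mattered, above all for the calls in the lower direction. Leaving out control 1, 2 or 3 gave 10, 6 and 8 members called higher, against 9.44%, 6.61% and 8.31% of all genes. Leaving out MNP sample 1, 2 or 3 gave 6, 5 and 5 members, against 7.55%, 5.99% and 5.9%. The only omission that left a member called lower was that of control 3, with 1 member, when 6.92% of all genes were lower. That share was 7.63% and 5.75% without controls 1 and 2, and 6.21%, 5.03% and 5.51% without MNP samples 1, 2 and 3.

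**Figure D1:**
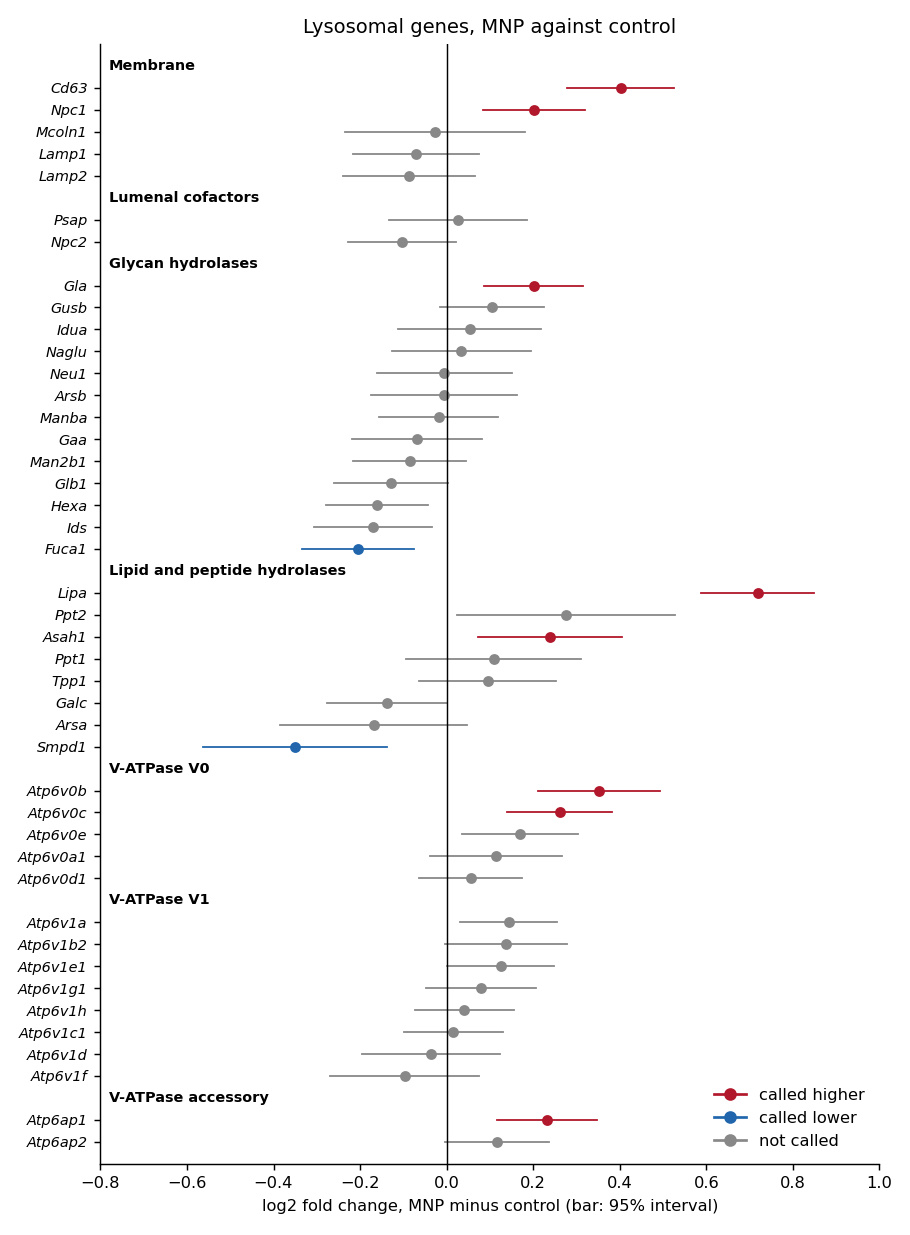
Log2 fold change (MNP minus control, x axis) of the 43 lysosomal genes grouped by role, with 95% intervals from the edgeR fit over 3 control and 3 MNP samples. Lipa lies farthest to the right at 0.72, and the intervals of the 8 V1 subunits all lie between -0.27 and 0.28.

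Some promoters of these genes, but not most, carry a shared sequence, shown here because the factors that bind it are known regulators of lysosomal genes. The 7 core letters TCACGTG of the CLEAR element were searched on both strands in RefSeq windows of 300 bases, 250 before and 50 after each gene start (build GRCm38.p6), with overlapping matches counted once. Windows were matched by symbol for 37 of 43 members, all but Npc1, Asah1, Atp6v1b2, Atp6v1c1, Atp6v1g1 and Atp6v1h. The letters stood in 11 of the 37 (29.7%), against 7.11% of 9864 tested genes with a window and 3.77% of all 32851 windows. The element was first described from promoters of lysosomal genes, so that this excess is not independent of how such genes are chosen.

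Of the 8 called members with a window, 2 held the letters (Atp6v0b and Gla), as did 9 of 29 that were not called. The stretches of 250 bases before the start of Atp6v0b (2 sites, chr4:117887330-117887579, minus strand), Gla (2 sites, chrX:134601006-134601255, minus strand) and Lamp1 (4 sites, chr8:13158911-13159160, plus strand) are given 5′ to 3′ in build GRCm38.p6, with each TCACGTG match in capitals. Lamp1 was added after its values were seen, as a gene with more sites than any other member that did not pass the test. In Gla both sites read the same on either strand and are 8 capitals long.
Atp6v0b: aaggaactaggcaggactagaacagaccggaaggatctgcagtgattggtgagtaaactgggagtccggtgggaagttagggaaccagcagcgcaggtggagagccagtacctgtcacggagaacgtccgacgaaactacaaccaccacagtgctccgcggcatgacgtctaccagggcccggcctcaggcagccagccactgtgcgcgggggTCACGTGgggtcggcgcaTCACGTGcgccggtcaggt
Gla: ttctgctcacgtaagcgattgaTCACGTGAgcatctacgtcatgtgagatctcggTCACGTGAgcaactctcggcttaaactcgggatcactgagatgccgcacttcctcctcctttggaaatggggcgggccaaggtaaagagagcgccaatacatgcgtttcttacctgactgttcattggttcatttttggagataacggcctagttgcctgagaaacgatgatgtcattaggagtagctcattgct
Lamp1: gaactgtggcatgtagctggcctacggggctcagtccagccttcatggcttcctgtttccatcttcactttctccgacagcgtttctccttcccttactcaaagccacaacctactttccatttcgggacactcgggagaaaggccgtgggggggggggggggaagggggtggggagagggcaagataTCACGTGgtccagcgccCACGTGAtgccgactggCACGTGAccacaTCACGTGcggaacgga

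Positions are given for the first base of the letters CACGTG within each site. The sites lay close to the start in Atp6v0b (-36 and -18) and in Lamp1 (-61, -45, -28 and -15), and farther away in Gla (-227 and -194). The V-ATPase genes Atp6v0d1, Atp6v0e and Atp6v1a, the channel gene Mcoln1 and the hydrolase genes Glb1, Naglu, Gaa and Arsa also held at least 1 site, and none of them passed the test. The letters TGACNNNGC, which are part of the antioxidant response element bound by NRF2, stood in 7 of 37 member windows (18.9%), against 17.1% of tested genes. Those 7 were Tpp1, Hexa, Psap, Atp6v0a1, Naglu, Galc and Atp6v1a, and none of the 8 called members was among them. A match describes letters in a window only.

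**Figure D2:**
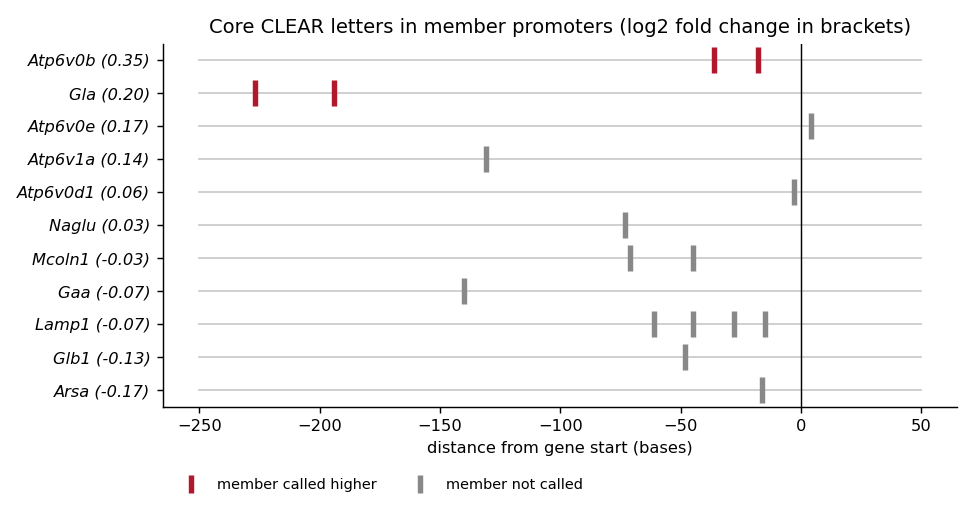
Positions of the core CLEAR letters (ticks) between 250 bases before and 50 bases after the RefSeq gene start (x axis, in bases), for the 11 members that hold them, in order of log2 fold change. Called members are red and the others grey: the 2 called members stand at the top, and Lamp1, with 4 ticks, stands at -0.07.

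The membrane proteins split. Cd63, a tetraspanin of late endosomes, lysosomes and exosomes, was at 303, 274 and 287 CPM in controls and at 386, 369 and 388 CPM in MNP samples. All 3 MNP values lay above all 3 control values, and Cd63 rose 1.32-fold (288 ± 14.7 to 381 ± 10.6 CPM, mean ± SD, n = 3 per group, log2 fold change 0.40 ± 0.06 SE, edgeR adjusted p = 0.00025). Npc1, which moves cholesterol out of the lysosome, was at 386, 416 and 412 CPM in controls and at 464, 455 and 477 CPM in MNP samples. The groups again did not overlap, and Npc1 rose 1.15-fold (log2 0.20 ± 0.05 SE, edgeR adjusted p = 0.0211), a call that was lost with library totals and when any 1 MNP sample was left out (adjusted p up to 0.149 over all alternatives).

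The LAMP proteins, which are major proteins of the lysosomal membrane, did not pass. Lamp1 was at 2013, 2059.9 and 2333 CPM in controls and at 1926, 2031 and 2141 CPM in MNP samples, so that the groups overlapped (log2 -0.07, 95% interval -0.22 to 0.07). Lamp2, which also serves chaperone-mediated autophagy, was at 899, 995 and 1052 CPM in controls and at 850.0, 951 and 973 CPM in MNP samples (log2 -0.09, 95% interval -0.24 to 0.07). Mcoln1, the lysosomal calcium channel, was at 21.9, 20.9 and 19.1 CPM in controls and at 21.0, 18.7 and 21.0 CPM in MNP samples (log2 -0.03, 95% interval -0.24 to 0.18). Of these 5 membrane genes 2 rose and 0 fell. None fell at an unadjusted edgeR p under 0.05, nor with DESeq2 or limma-voom. Over all tested genes 9.11% were called higher and 8.35% lower. The lower share was 5.95% with DESeq2 and 8.12% with limma-voom, and 1896 of 12893 genes were lower at an unadjusted edgeR p under 0.05.

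Both lumenal cofactors overlapped between groups. Psap encodes the precursor of the saposins, which present sphingolipids to their hydrolases, and was the most abundant member at 11922, 10129 and 10008 CPM in controls and 11475, 10174 and 11009.9 CPM in MNP samples. Control 1 and MNP sample 1 had the highest values of their groups. Npc2, the soluble cholesterol carrier that hands its cargo to Npc1, was at 557 to 647 CPM over the 6 libraries, with its 2 highest values in controls (log2 -0.10 ± 0.06 SE, edgeR adjusted p = 0.256). Of these 2 genes 0 passed, also at an unadjusted edgeR p under 0.05 and with DESeq2 and limma-voom. The called share of all tested genes was 17.5%, with 29.9% at an unadjusted edgeR p under 0.05, 13.3% with DESeq2 and 17.4% with limma-voom.

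Among 8 hydrolases of lipids, lipoproteins and peptides, 2 rose and 1 fell. Of all 21 hydrolases 14.3% were called higher and 9.52% lower, near the 13.1% and 9.66% of the abundant genes. The shares of all tested genes were 9.11% and 8.35%. Lipa, which cleaves cholesteryl esters and triglycerides, was at 2006, 1933 and 2079 CPM in controls and at 3118, 3285 and 3499 CPM in MNP samples. The lowest MNP library was thus far above the highest control, and Lipa rose 1.65-fold (2006 ± 72.6 to 3301 ± 191 CPM, log2 0.72 ± 0.06 SE, edgeR adjusted p = 2.08e-06). Its log2 fold change stayed between 0.63 and 0.76 over the 14 alternatives.

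The other called genes of this group were Asah1 and Smpd1. Asah1, acid ceramidase, was at 377, 394 and 469 CPM in controls and at 461, 508 and 493 CPM in MNP samples. Control 3 lay above MNP sample 1, so Asah1 was the only called member whose groups overlapped (1.18-fold higher, log2 0.24 ± 0.08 SE, edgeR adjusted p = 0.0487), and its call was lost in 6 of 14 alternatives. Smpd1, acid sphingomyelinase, which makes ceramide, was at 18.6, 17.4 and 18 CPM in controls and at 14.6, 14.6 and 13.1 CPM in MNP samples. Every MNP value was below every control value, and Smpd1 fell (1.28-fold lower, log2 -0.35 ± 0.10 SE, edgeR adjusted p = 0.0257). That call was lost with DESeq2, with no filter and without any 1 library (adjusted p up to 0.123).

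The other 5 of this group did not pass. Galc, which removes galactose from galactosylceramide, was at 186, 187 and 212 CPM in controls and at 178, 169 and 185 CPM in MNP samples (edgeR adjusted p = 0.169). Arsa, which removes sulfate from sulfatide, was at 14.8 to 18.7 CPM over the 6 libraries. Ppt1 and Ppt2, which cleave thioesters of fatty acids, and Tpp1, a tripeptidyl peptidase, had overlapping groups. Ppt2 had the widest control spread of all members (42.5, 30.8 and 32.7 CPM, a coefficient of variation of 17.8%, against a median of 4.63% over members), and its MNP values were 46.3, 37.8 and 44.0 CPM. In GENCODE release M21, 36.6% of the exon bases of Ppt2 are shared with the overlapping gene Gm20460, so its count is uncertain.

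The 13 hydrolases of glycans, glycoproteins and glycosaminoglycans included 1 gene that rose and 1 that fell, with a median log2 fold change of -0.02. That is 7.69% in each direction, against 9.11% of all tested genes called higher and 8.35% lower. Gla, alpha-galactosidase A, which trims globotriaosylceramide and whose promoter sites are printed above, was at 189, 180.4 and 183 CPM in controls and at 208, 209.6 and 217 CPM in MNP samples. The groups did not overlap and Gla rose 1.15-fold (log2 0.20 ± 0.05 SE, edgeR adjusted p = 0.0178), with the call lost in 4 of 14 alternatives. Fuca1, alpha-L-fucosidase, was at 199, 181 and 179 CPM in controls and at 165, 155 and 165 CPM in MNP samples. It fell, with every MNP value below every control value (1.15-fold lower, log2 -0.20 ± 0.06 SE, edgeR adjusted p = 0.0322), and the call was lost in 6 of 14 alternatives, 5 of them the omission of a library.

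Hexa, the alpha chain of beta-hexosaminidase, came close to the threshold. Its values were 610.3, 586 and 633 CPM in controls and 555, 531 and 551 CPM in MNP samples, with no overlap (log2 -0.16 ± 0.05 SE, edgeR adjusted p = 0.059). Hexa was called lower in 6 of 14 alternatives, among them DESeq2 and limma-voom. Ids, the iduronate sulfatase of glycosaminoglycan breakdown, and Glb1, beta-galactosidase, were also lower in each MNP library than in any control without passing (log2 -0.17 and -0.13), and Gusb, beta-glucuronidase, was higher in each (log2 0.10).

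The remaining 7 of this group, Gaa, Idua, Manba, Man2b1, Naglu, Neu1 and Arsb, showed overlapping groups with log2 fold changes between -0.09 and 0.05. Gaa degrades glycogen, Man2b1 and Manba cleave mannosides, and Neu1 removes sialic acid. Manba varied little, at 56.5 to 59.6 CPM in all 6 libraries.

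The summed level of the 21 hydrolases was 5750.2, 5550.9 and 5885 CPM in controls and 6879, 7015 and 7228 CPM in MNP samples. Lipa accounted for nearly all of that difference. Without Lipa, the other 20 summed to 3744, 3618 and 3807 CPM in controls and to 3760.4, 3729.9 and 3729 CPM in MNP samples, with overlapping groups and a ratio of means of 1.00. The 5 membrane proteins summed to 3624 to 4102 CPM in controls and to 3647 to 4000 CPM in MNP samples, which also overlapped.

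**Figure D3:**
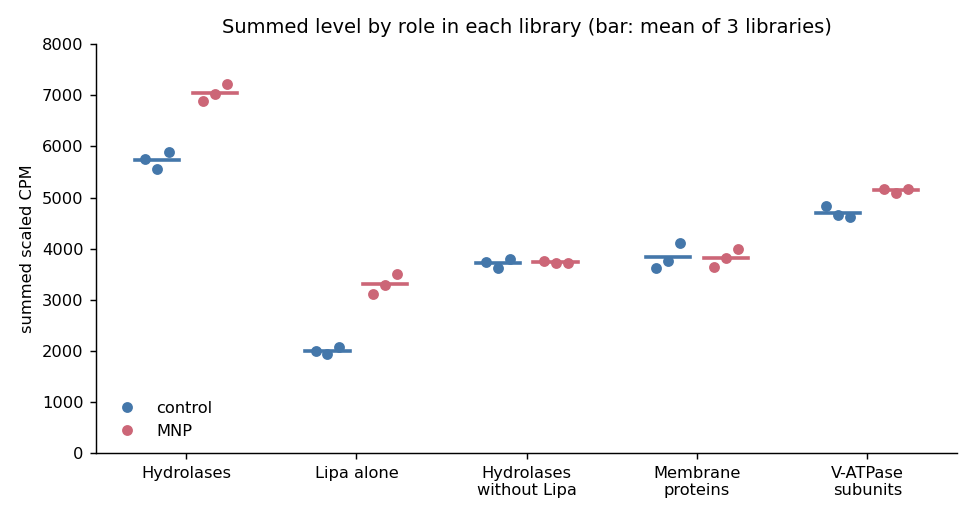
Summed scaled CPM (y axis) of the hydrolases, of Lipa alone, of the hydrolases without Lipa, of the membrane proteins and of the V-ATPase subunits, for each of 3 control and 3 MNP libraries (points) with the group mean (bars). The hydrolase sum separates the groups only with Lipa in it. The V-ATPase sum lies at 4619 to 4837 in controls and at 5097 to 5174 in MNP samples with TMM factors. With library totals, which lower the log2 fold changes of all genes about alike, the V-ATPase groups overlap.

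Of the 15 V-ATPase genes 3 rose and 0 fell, and 0 fell at an unadjusted edgeR p under 0.05, with DESeq2 or with limma-voom. Over all tested genes 9.11% were called higher and 8.35% lower. The lower share was 5.95% with DESeq2 and 8.12% with limma-voom, and 1896 of 12893 genes were lower at an unadjusted edgeR p under 0.05. The sum over the 15 was 4837, 4658 and 4619 CPM in controls and 5162, 5097 and 5174 CPM in MNP samples, which is 1.09 times as high by the means. With library totals in place of TMM factors the summed values were 4981, 4823 and 4726 CPM in controls and 5018, 4979 and 4954 CPM in MNP samples, which overlapped. That scaling lowers the log2 fold change of every gene by about the same amount. The median log2 fold change of the 15 was 0.12 with TMM factors, when that of all tested genes was -0.01. With library totals it was 0.03, when that of all tested genes was -0.10. The like distance from the median gene follows from that shift and is no separate test of the pump genes.

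The called pump genes were in the V0 sector and among the accessory subunits. Atp6v0b and Atp6v0c encode the proteolipids of the V0 rotor ring, which carries protons across the membrane. Atp6v0b was at 136, 123 and 120.2 CPM in controls and at 172, 157 and 154 CPM in MNP samples (1.28-fold higher, log2 0.35 ± 0.07 SE, edgeR adjusted p = 0.00201). Atp6v0c was at 159, 156 and 165 CPM in controls and at 199, 194 and 183 CPM in MNP samples (1.20-fold higher, log2 0.26 ± 0.06 SE, edgeR adjusted p = 0.00535). Neither gene's groups overlapped, and both kept their call in all 14 alternatives, as did Cd63 and Lipa alone among the other called members.

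The accessory subunit Atp6ap1, which assists pump assembly, was at 284, 264 and 277 CPM in controls and at 322, 326 and 321 CPM in MNP samples. The 3 MNP values lay close together and above all controls, and Atp6ap1 rose 1.17-fold (log2 0.23 ± 0.05 SE, edgeR adjusted p = 0.00823), a call lost only with library totals. Its partner Atp6ap2, also known as the prorenin receptor, was at 221, 226 and 213 CPM in controls and at 236, 249.5 and 229.8 CPM in MNP samples. Those groups did not overlap, but Atp6ap2 did not pass (log2 0.12 ± 0.06 SE, edgeR adjusted p = 0.182).

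The other V0 subunits did not pass. Atp6v0a1, an isoform of the stator subunit a that forms the proton path, was at 729, 627 and 604 CPM in controls and at 733, 686 and 703 CPM in MNP samples, with control 1 among the MNP values (log2 0.11, 95% interval -0.04 to 0.27). Atp6v0d1, which joins the rotor ring to V1, was at 163, 169.8 and 175 CPM in controls and at 182, 174 and 172 CPM in MNP samples (log2 0.06, 95% interval -0.06 to 0.17). Atp6v0e was at 163, 153 and 169 CPM in controls and at 176, 175 and 194 CPM in MNP samples, without overlap (edgeR adjusted p = 0.0804).

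In the V1 sector 0 of 8 subunits passed, with 2 at an unadjusted edgeR p under 0.05 (Atp6v1a and Atp6v1e1) and 1, Atp6v1a, with DESeq2 and with limma-voom. For all tested genes the called share was 17.5%, with 29.9% at an unadjusted edgeR p under 0.05. DESeq2 called 13.3% and limma-voom 17.4%. The difference between the V0 and V1 sectors was not tested. Atp6v1a, the catalytic subunit A, was at 1122, 1141 and 1133 CPM in controls and at 1220.0, 1259.7 and 1270.4 CPM in MNP samples. The groups did not overlap, at a difference of log2 0.14 ± 0.05 SE (edgeR adjusted p = 0.0763). Atp6v1b2, the B subunit that shares the nucleotide sites, was at 892, 813 and 749 CPM in controls and at 892, 894 and 914 CPM in MNP samples, with control 1 level with MNP sample 1. The other 6 V1 subunits, Atp6v1c1, Atp6v1d, Atp6v1e1, Atp6v1f, Atp6v1g1 and Atp6v1h, all had overlapping groups and log2 fold changes from -0.10 to 0.12.

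**Figure D4:**
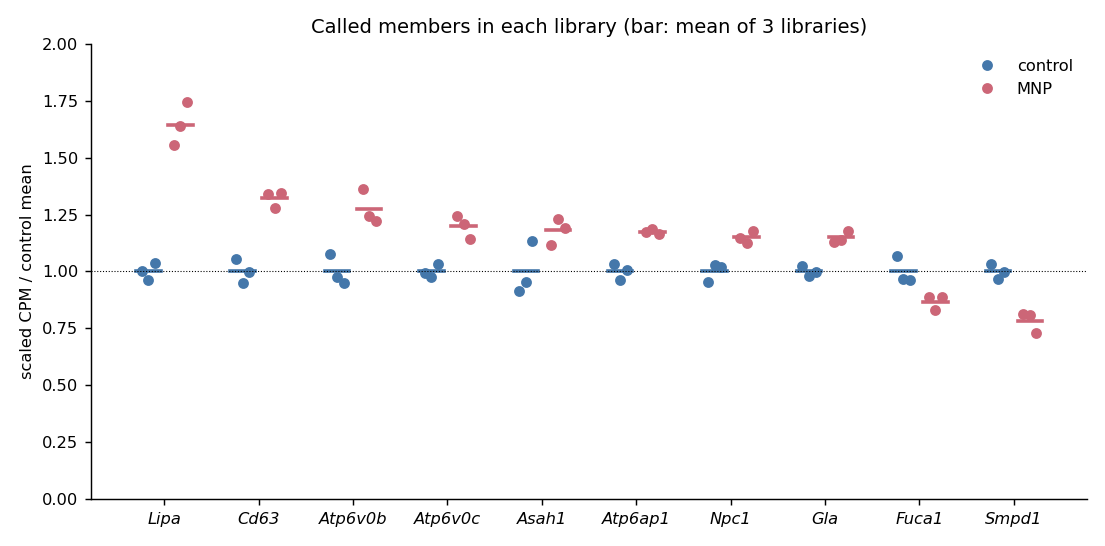
Scaled CPM of the 10 called members in each library, divided by the control mean of the gene (y axis), for 3 control and 3 MNP libraries (points) with the group mean (bars). For 9 of the 10 genes the groups do not overlap. Asah1, where control 3 lies above MNP sample 1, is the exception.

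Levels of different genes were compared per kilobase of the longest principal transcript in GENCODE release M21, so the order depends on that transcript choice. On this scale Psap led in controls (4022 ± 403 CPM per kb), followed by Lamp1 (958 ± 77.4) and Lipa (676 ± 24.5), and Arsa was lowest (5.04 ± 0.323). Lipa and Lamp1 changed places in MNP samples: Lipa was at 1050.3, 1107 and 1179 CPM per kb and Lamp1 at 864, 911 and 960.5, while in controls Lipa was at 676, 651 and 700.1 and Lamp1 at 903, 924 and 1046. Within the pump, the control level was highest for Atp6v1b2 and Atp6v1a (290 ± 25.3 and 267 ± 2.19 CPM per kb), whose ranges overlapped, and lowest for Atp6v1d (26.4 ± 2.73). The other 12 subunits lay between 57.4 and 163 CPM per kb.

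Some subunits have alternative isoforms that are not among the 43. Tcirg1 encodes the a3 isoform of subunit a, known from lysosomes and from the bone-resorbing membrane of osteoclasts. It was at 285, 233 and 215 CPM in controls and at 378, 331 and 327 CPM in MNP samples and rose 1.41-fold (log2 0.50 ± 0.09 SE, edgeR adjusted p = 0.00199), with the call kept in all 14 alternatives. Per kilobase, Tcirg1 made up 32.7%, 31.5% and 30.5% of the summed a isoforms in controls and 39.1%, 37.2% and 36.4% in MNP samples, without overlap. This share is a description without a test.

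Atp6v0d2, the d isoform of osteoclasts and some macrophages, pointed the other way without passing, at 406, 352 and 351 CPM in controls and 325, 325 and 340.2 CPM in MNP samples (log2 -0.16 ± 0.06 SE, edgeR adjusted p = 0.108). Its per-length level exceeded that of Atp6v0d1 in every library, at 56.3% to 61.5% of the summed d isoforms in controls and at 53.4% to 55.9% in MNP samples. Atp6v0a2 did not pass (54.4 ± 3.55 and 62.9 ± 4.71 CPM, edgeR adjusted p = 0.0851), nor did Atp6v1g2, near 1 CPM or lower in all libraries (edgeR adjusted p = 0.762). The isoforms Atp6v0a4, Atp6v0e2, Atp6v1b1, Atp6v1c2, Atp6v1e2 and Atp6v1g3 were too weak to be tested.

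**Figure D5:**
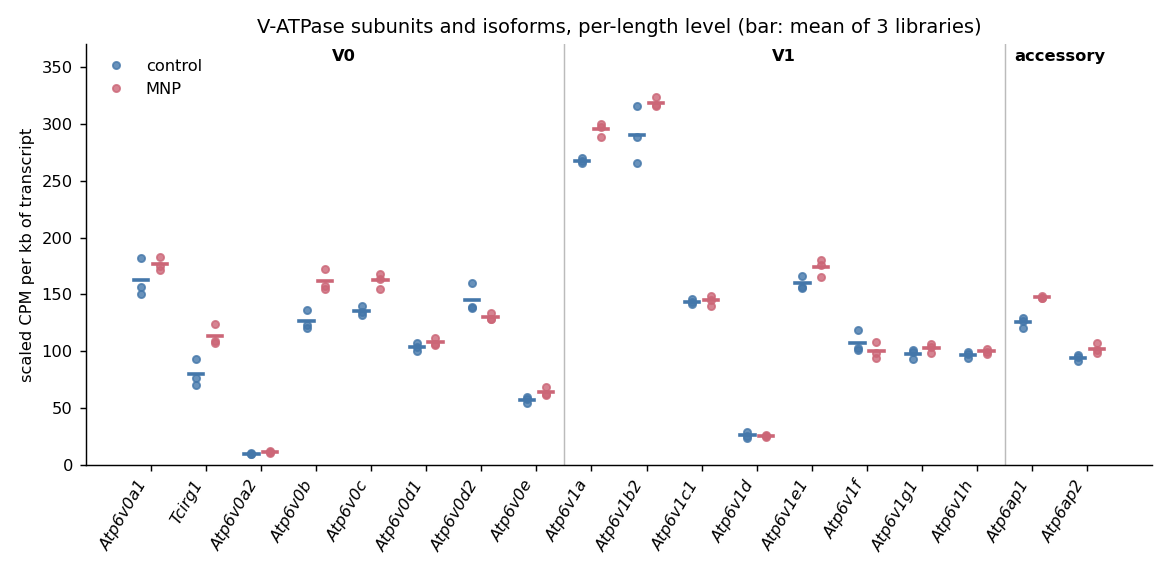
Scaled CPM per kilobase of the principal transcript (y axis) of the 15 V-ATPase members and the isoforms Tcirg1, Atp6v0a2 and Atp6v0d2, in 3 control and 3 MNP libraries (points) with group means (bars). Atp6v0b, Atp6v0c, Tcirg1 and Atp6ap1 separate the groups upward and passed the test, Atp6v0e, Atp6v1a and Atp6ap2 separate them without passing, and Atp6v0d2 lies lower in MNP samples without passing.

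Of 111 other genes of the lysosome, 102 were tested, and 11 rose and 5 fell, which is 15.7% against 17.5% of all tested genes. With library totals in place of TMM factors these counts were 6 and 21, when 5.87% of all tested genes were called higher and 15.1% lower. Among 26 other hydrolases and activators 2 rose and 2 fell, among them the DNA-degrading Dnase2a (1.15-fold higher), the acid phosphatase Acp2 and the ribonuclease Rnaset2a. Acp2 went from 220.3, 216 and 227 CPM in controls to 154, 155 and 165 CPM in MNP samples (1.40-fold lower, log2 -0.49 ± 0.05 SE, edgeR adjusted p = 3.05e-05), the largest decrease among called genes of these lists. Rnaset2a (1.32-fold lower) has a near-identical copy, Rnaset2b, which did not pass, so their separate counts are uncertain. The call of Dnase2a was lost with library totals and without control 2, control 3, MNP sample 1 or MNP sample 3.

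Among 28 other membrane proteins and transporters 3 rose and 1 fell (10.7% and 3.57%, against 9.11% and 8.35% of all tested genes). The cation channel Tpcn1 rose 1.3-fold, Laptm5 1.24-fold and the chloride-proton exchanger Clcn7 1.20-fold, and Tmem106b was 1.14-fold lower. The call of Tmem106b was lost with no filter and on omission of any 1 library but control 1. That of Clcn7 was lost with library totals and without control 2, control 3, MNP sample 1 or MNP sample 2. The sorting of new hydrolases to lysosomes relies on mannose 6-phosphate tags, and 2 of 15 genes of this step rose and 1 fell. These are 13.3% and 6.67%, against the same 9.11% and 8.35% of all tested genes. The mannose 6-phosphate receptor M6pr was at 290.1, 288 and 297 CPM in controls and at 364, 362 and 388 CPM in MNP samples and rose 1.27-fold (edgeR adjusted p = 0.000523). The sorting receptor Sort1 rose 1.24-fold, and Ap1b1, a subunit of the clathrin adaptor that loads such receptors at the Golgi, was 1.34-fold lower.

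Of 11 genes of V-ATPase assembly and regulation 1 fell, Dmxl1 (1.18-fold lower), and 0 rose, also at an unadjusted edgeR p under 0.05 and with DESeq2 and limma-voom. Over all tested genes 9.11% were called higher, 15.2% at an unadjusted edgeR p under 0.05, 7.34% with DESeq2 and 9.25% with limma-voom. Among 18 MiT factors and genes of lysosomal nutrient signalling 3 rose: Mitf (1.15-fold, edgeR adjusted p = 0.0324), Fnip2 (1.18-fold) and Rptor of mTORC1 (1.19-fold). Of this list 0 fell, with 2 lower at an unadjusted edgeR p under 0.05 and 0 with DESeq2 or limma-voom. The share of all tested genes called lower was 8.35%, with 5.95% by DESeq2 and 8.12% by limma-voom. The call of Fnip2 was lost with library totals, and that of Dmxl1 without control 2 or without MNP sample 3. Mitf lost its call with library totals and without control 2, control 3, MNP sample 2 or MNP sample 3, and Rptor with library totals and without control 3, MNP sample 2 or MNP sample 3. Tfeb was at 27.9 to 32.2 CPM in all 6 libraries (edgeR adjusted p = 0.987). Tfe3 was higher in each MNP library than in any control without passing (86.1 ± 6.11 and 95.3 ± 2.39 CPM, log2 0.15 ± 0.06 SE, edgeR adjusted p = 0.147).

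Markers of other cell types were measured beside these results. The 10 macrophage markers summed to 19297 to 20035 CPM in controls and to 17268 to 18270 CPM in MNP samples. Most of that sum was Lyz2 (means of 14779 CPM in controls and 13152 CPM in MNP samples). Of the 10, 1 was higher (C5ar1) and 4 were lower (Adgre1, Mertk, Fcgr1 and Lyz2), when 9.11% of all tested genes were called higher and 8.35% lower. The others, Csf1r, Cd68, Itgam, Cd14 and Spi1, did not pass the test. Cd68, also a lysosomal membrane protein, came close at 1.19-fold higher with overlapping groups (edgeR adjusted p = 0.0507). The 8 neutrophil markers summed to 162 to 239 CPM in controls and to 113 to 132 CPM in MNP samples, with 4 of 7 tested lower and Ly6g below 1 CPM in every library. The 8 dendritic cell markers summed to 7.46 to 10.6 CPM and 3.39 to 6.09 CPM, and the 5 endothelial markers, nearly all of it Kdr, to 17 to 20.5 CPM and 13 to 15.9 CPM.

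The 8 osteoclast markers, whose sum is mostly Atp6v0d2, overlapped between groups (432 to 520.1 and 435 to 455 CPM). Among them Ctsk was 1.72-fold higher, Mmp9 was 1.74-fold lower, and the defining Calcr and Oscar were below 1 CPM everywhere. Markers of B cells, T and NK cells, erythroid cells, mast cells and stromal cells each summed to at most 2.26 CPM in any library, with Cd3e and Gzma at 0 in all. The part of these cells in the member values was not tested, and in bulk samples fewer cells of a type and less RNA per cell cannot be told apart. The gene Gm26917 took 1.02% of the counts of MNP sample 1, against 0.251% to 0.444% in the other 5 libraries.

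Overlaps and copies limit some counts, since the strand setting of the counting is not given in the sources used here. By GENCODE release M21, 11.8% of the exon bases of Atp6v0b are shared with the antisense gene Gm12841, which had 0 counts in every library. For Atp6v0c, 10.7% of its stretches of 50 bases recur in the pseudogene Atp6v0c-ps2, whose own count did not pass (26.2 ± 4.86 and 29.1 ± 2.30 CPM, edgeR adjusted p = 0.426). For Cd63, 9.7% recur in the pseudogene Cd63-ps, not analysed here. Npc1 shares 4.52% of its exon bases with the opposite gene Rmc1, which rose 1.27-fold at a much lower level (33.6 ± 1.85 to 42.9 ± 6.04 CPM). No exon overlap with another gene was found for Lipa, Gla, Asah1, Smpd1, Fuca1 or Atp6ap1 in that annotation.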

How the data were processed

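RNA from 3 control and 3 MNP macrophage samples was sequenced from CORALL RNA-seq V2 libraries, per the labels' protocols. The authors deposited raw counts, in whole numbers, for 40213 gene symbols. The tools named in the submitters' processing notes are fastp, STAR, Salmon and GATK, without role or version, and the named build is GRCm39. Annotation and strand setting: not given in the sources used here.

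The members, role groups and gene lists were chosen with earlier results of these data known. Sample titles gave the groups and the replicate numbers. Replicates within a group differed by more than sampling noise (chi-square per degree of freedom 7.07 to 19.6). The test was edgeR 4.0.16 (R 4.3.3) with the default expression filter (12893 genes left), TMM factors, the quasi-likelihood F test of MNP against control, Benjamini-Hochberg adjustment over all tested genes, called under 0.05. Each SE was derived from the fold change and its F statistic. The procedure was tested on simulated data. For the depth, 1 count was worth 0.0434 to 0.0494 CPM before scaling.

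Named genes were all members, up to 4 called genes with the smallest p from each list of other lysosomal genes, and every tested V-ATPase isoform. Tfeb, Tfe3, Rnaset2b, overlapping genes and single markers were named after their values were seen. Some genes that the rule names are not reported here. Alternatives were RLE and upper-quartile factors, library totals, no filter, a stricter filter (50 counts in 3 libraries), a replicate block, DESeq2 1.42.0, limma-voom (limma 3.58.1) and the omission of each library. Transcript lengths, exon overlaps and shared stretches came from GENCODE M21 (GRCm38) by symbol, and promoter windows from RefSeq (GRCm38.p6). No file coordinates were used.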

Additional observations from a re-analysis of the deposited data

How the results depend on the processing

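Lipa, Cd63, Atp6v0b and Atp6v0c kept their call and direction in all 14 alternatives, and no called member changed direction in any of them. Of the 33 members that did not pass, 23 were called in 0 alternatives and 10 in at least 1. With library totals alone, 4 members were called higher and 7 lower (Npc2, Hexa, Glb1, Ids, Fuca1, Smpd1 and Galc), their median log2 fold change was -0.0481, and 28.1% of all calls were higher against 52.2% with TMM factors. With no filter, 0 members were called lower and the median was 0.0748. Omission of 1 library gave 1471 to 2245 called genes, against 2250 with all libraries, 5 to 10 members called higher and 0 to 1 called lower. With a block for the replicate number, 2686 genes were called, 11 members were higher and 3 lower, against 11.1% and 9.73% of all genes. Deviations of same-numbered samples correlated at 0.0867, 0.0282 and -0.0218, and not every sample correlated best with its own number. The numbers were therefore not taken as pairs. A principal component, an axis of variation over all samples, did order the replicates alike in both groups. In number order its values were 10.8, -5.3 and -7.93 in controls and 32.6, -11.3 and -18.9 in MNP samples. The component that separated the groups did not order them alike. An effect shared by same-numbered samples was not tested further, and the main calls take no account of it. Depth limits Smpd1 and Arsa most, with as few as 275 and 310 counts in a library.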
